A study of Mus musculus with 7 samples.

Results

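Stretches of the mouse genome that carried chromatin state E5 both with and without an inhibitor of the histone demethylase LSD1 are described here. Each genome segmentation was read on its 200 bp grid, bins called E5 in DMSO and again in GSK-LSD1 were joined where they touched, and runs of at least 400 bp were kept. That gave 15450 regions on chromosomes 1 to 19 and X, out of 24673 E5 regions in DMSO and 24170 in GSK-LSD1. They covered 22.8 Mb, or 0.865% of these chromosomes. The regions were selected on the measured state calls themselves, so their staying E5 is a description and not a finding. At the length limit, 1671 regions of exactly 400 bp were taken and 1851 runs of 1 bin were left out.

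The cells were leukaemia cells from BALB/c mouse bone marrow, in which retroviruses expressed mutant CSF3R together with mutant CEBPA. CSF3R is the cell surface receptor of G-CSF, the growth factor of neutrophils, and CEBPA is a factor of granulocyte development. Both groups carried these genes and were grown in IMDM with serum. They received either DMSO, the solvent, or GSK-LSD1 at 4 nM, for 48 h in each case. Chromatin immunoprecipitation was done for H3K4me1, H3K4me3 and H3K27Ac, with 1 library per mark and treatment and 1 input library. The authors deposited 1 segmentation into 6 states per treatment, so no replicate exists, no p-value is given, and every comparison is between these 2 segmentations. Some facts were not given in the sources used here, namely how many animals or clones the cells came from and which marks make up each state. Bins, genes and chromosomes are not replicates. The 95% Wilson intervals below cover counting error only, and sequencing depth is unknown.

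LSD1 takes methyl groups off lysine 4 of histone H3 and acts within the CoREST complex, which GFI1 and GFI1B bring to DNA in blood cells. H3K4me3 marks the start regions of genes, most strongly where the DNA is rich in CpG. H3K4me1 is typical of enhancers and of the flanks of starts, and H3K27Ac of active elements of both kinds. In these segmentations E5 lay mostly near gene ends: 31.5% of E5 bins in DMSO lay over 2.5 kb from any annotated gene end, against 86.1% of all bins. Among granulocyte and promyelocyte markers, 3 of 8 had E5 or E6 within 1 kb of a gene end in DMSO and 8 of 8 in GSK-LSD1, with summed lengths of 7.2 and 17.8 kb, and 0 of the 8 held only kept E5. The 8 belong to a granulocyte list of 25 genes used below. In that list 10 genes had neither state in either segmentation, beside 40.0% of all protein-coding genes. The T cell markers had neither state in both segmentations (0 of 4). The B cell factor gene Ebf1, the erythropoietin receptor gene Epor and the collagen gene Col1a1 did hold kept E5, of 1.8, 1.2 and 0.2 kb, so a kept E5 region at a gene was no sign of the cell type named in the labels.

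Gene starts give the plainest view of the 2 kinds of E5. The promoter windows printed here are RefSeq sequences (build GRCm38.p6, 250 bases before to 50 after the start), shown because they come from families with a high or a low share of kept starts in the results below, and, for Cebpa, because a mutant form of that gene was introduced. Capitals mark the GC box letters GGGCGG and the ETS-type letters CCGGAAG on either strand. The first 4 had E5 at the start bin in both segmentations. Sema6c encodes a semaphorin, a guidance cue for axons and other moving cells, and lies at chr3:95160170-95160469 on the plus strand. Wnt9a encodes a secreted Wnt signal (chr11:59306680-59306979, plus strand). Cebpa is the cells' own copy of the gene that was introduced in mutant form (chr7:35119043-35119342, plus strand). Ift88 encodes a carrier of cargo within cilia (chr14:57423821-57424120, plus strand).
Sema6c: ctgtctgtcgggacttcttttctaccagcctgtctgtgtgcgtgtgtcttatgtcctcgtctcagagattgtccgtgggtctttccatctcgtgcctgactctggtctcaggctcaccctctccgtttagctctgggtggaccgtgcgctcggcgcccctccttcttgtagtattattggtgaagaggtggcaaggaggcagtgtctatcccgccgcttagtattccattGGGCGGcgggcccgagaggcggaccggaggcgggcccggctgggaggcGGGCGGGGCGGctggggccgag
Wnt9a: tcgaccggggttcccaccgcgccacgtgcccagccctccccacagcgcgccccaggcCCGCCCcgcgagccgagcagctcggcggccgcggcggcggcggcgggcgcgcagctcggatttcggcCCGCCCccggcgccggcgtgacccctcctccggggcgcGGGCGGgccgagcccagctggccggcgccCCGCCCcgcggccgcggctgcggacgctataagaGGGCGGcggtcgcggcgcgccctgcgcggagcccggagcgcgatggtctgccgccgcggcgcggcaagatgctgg
Cebpa: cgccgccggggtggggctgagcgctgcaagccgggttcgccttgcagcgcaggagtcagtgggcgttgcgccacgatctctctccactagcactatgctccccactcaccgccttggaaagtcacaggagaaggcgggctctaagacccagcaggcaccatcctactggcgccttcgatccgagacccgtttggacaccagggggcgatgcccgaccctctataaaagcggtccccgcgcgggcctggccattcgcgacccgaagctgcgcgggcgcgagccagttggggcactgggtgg
Ift88: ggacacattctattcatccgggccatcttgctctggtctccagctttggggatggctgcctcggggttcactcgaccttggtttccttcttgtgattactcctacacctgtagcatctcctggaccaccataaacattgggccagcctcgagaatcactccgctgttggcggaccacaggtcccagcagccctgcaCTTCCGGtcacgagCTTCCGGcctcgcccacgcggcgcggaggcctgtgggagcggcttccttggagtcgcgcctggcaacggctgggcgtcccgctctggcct
The next 3 had E5 at the start bin in DMSO and E6 in GSK-LSD1. Ift20 belongs to the same cilium family as Ift88 (chr11:78536111-78536410, plus strand). Jak2 encodes a kinase that CSF3R signals through (chr19:29251553-29251852, plus strand). Cdc20 encodes an activator of the anaphase-promoting complex (chr4:118437294-118437593, minus strand).
Ift20: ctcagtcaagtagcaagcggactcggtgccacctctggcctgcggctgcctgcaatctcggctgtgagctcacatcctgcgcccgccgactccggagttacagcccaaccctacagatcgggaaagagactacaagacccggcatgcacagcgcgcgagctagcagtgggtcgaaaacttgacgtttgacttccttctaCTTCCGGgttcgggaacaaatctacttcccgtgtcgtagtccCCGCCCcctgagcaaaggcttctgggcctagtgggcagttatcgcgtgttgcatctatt
Jak2: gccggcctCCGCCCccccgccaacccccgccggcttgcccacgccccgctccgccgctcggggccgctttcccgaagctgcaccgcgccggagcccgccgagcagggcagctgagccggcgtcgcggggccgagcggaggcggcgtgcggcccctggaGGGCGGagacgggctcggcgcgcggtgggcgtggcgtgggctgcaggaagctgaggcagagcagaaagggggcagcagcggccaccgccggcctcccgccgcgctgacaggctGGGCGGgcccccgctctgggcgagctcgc
Cdc20: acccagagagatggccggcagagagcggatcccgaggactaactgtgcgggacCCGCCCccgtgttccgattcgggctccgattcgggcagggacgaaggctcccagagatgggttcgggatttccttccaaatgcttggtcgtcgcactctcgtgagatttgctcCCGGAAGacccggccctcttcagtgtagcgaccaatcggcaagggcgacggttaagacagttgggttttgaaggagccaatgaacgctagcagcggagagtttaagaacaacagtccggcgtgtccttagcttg
Both letter runs occurred on either side of the comparison. Sema6c had 3 GC box matches and no ETS-type match, and Wnt9a had 5 and 0. Cebpa had neither. Ift88 had 2 ETS-type matches although its start stayed E5, while Ift20 and Cdc20 each had 1 of either kind and Jak2 had 3 GC box matches alone. The shares over all starts are given further on.

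The regions were short. Their median length was 1200 bp, with quartiles of 800 and 2000 bp and a longest of 10800 bp, and 404 reached 4000 bp. Stretches of at least 400 bp that went from E5 to E6 numbered 14476, with a median of 1400 bp and a longest of 23400 bp. Kept regions over a RefSeq gene start had a median of 2000 bp, against 1000 bp for those more than 2.5 kb from any gene end. Kept E5 in these regions made up 43.7% of the E5 length in DMSO and 56.5% of that in GSK-LSD1. The E5 bins that did not stay went almost all to E6 (51.3% of DMSO E5 bins), with 2.89% becoming E4.

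Few of the regions had the same limits in both segmentations. Only 444 (2.87%) matched the surrounding E5 exactly on both sides in both. In 5235 (33.9%) the kept stretch was the whole DMSO E5 region and E5 reached further in GSK-LSD1. In 2970 (19.2%) it was the whole GSK-LSD1 E5 region and E5 had reached further in DMSO. In 6801 (44.0%) E5 extended past it in both. E4 bordered 62.7% of the sides in DMSO and 22.8% in GSK-LSD1. E6 bordered 0.447% of the sides in DMSO and 26.9% in GSK-LSD1, and 7726 of the 15450 regions touched E6 on at least 1 side after treatment. The kept stretch was the whole DMSO E5 region in 36.8% of cases, an edge of it in 54.5% and its middle in 8.75%.

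Seen from the 24673 E5 regions in DMSO, 24.4% stayed E5 over their whole length, 32.4% became E6 over their whole length, and 25.9% held both outcomes. These mixed regions were long, with a median of 3200 bp, against 1600 bp for wholly kept and 1200 bp for wholly E6 regions. Within DMSO regions of at least 2000 bp, the kept share of bins was 54.8% in the outermost 5% of the region and 38.8% next to its centre. The E6 share was 37.2% and 60.8% at the same places. Kept E5 in long regions thus lay more at the edges, with E6 more often inside.

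The kept share depended on the length of the DMSO region, and not in 1 direction. It was 26.5% of E5 length in regions of 200 to 600 bp, was 56.0% at 2200 to 2600 bp, and was 38.4% in regions of 3600 bp and over. The same shape was found on the autosomes alone, at 25.9%, 55.2% and 38.1%.

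**Figure D1:**
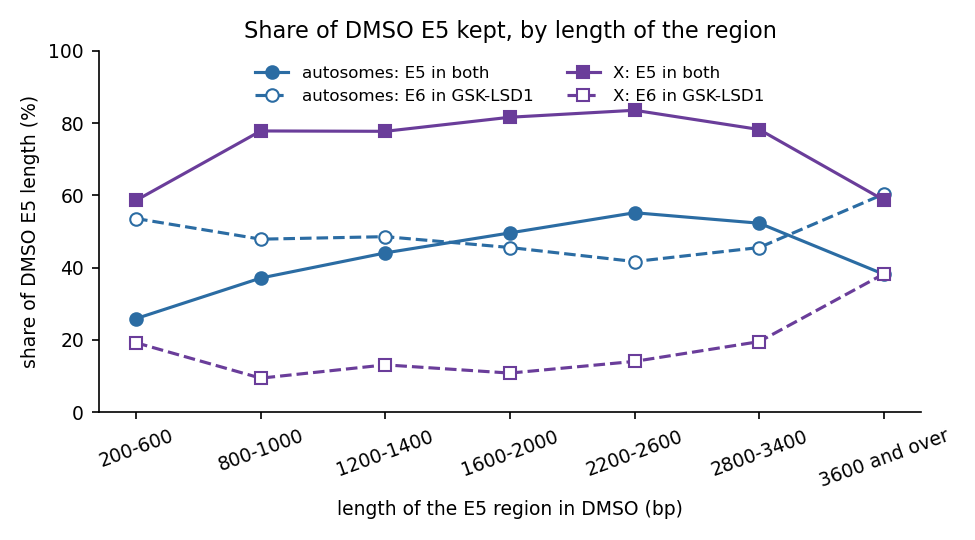
Share of DMSO E5 length (vertical axis, %) that was E5 in both segmentations (filled symbols) or E6 in GSK-LSD1 (open symbols), by length class of the DMSO E5 region (horizontal axis, bp), for the autosomes together and for chromosome X. The kept share on the autosomes is highest at 55.2% in regions of 2200 to 2600 bp, and chromosome X lies above the autosomes in every class.

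Chromosome X kept far more of its E5 than any autosome. Of the E5 length in DMSO, 73.3% on X was in kept bins, against 44.1% ± 2.74 (SD, n = 19 autosomes), with chromosome 11 lowest at 38.2% and chromosome 8 highest at 47.5%. The E6 share on X was 21.1%, against 51.7% ± 2.82. Of the 536 DMSO E5 regions on X, 52.4% (48.2 to 56.6) were kept whole and 7.65% became E6 throughout, against 23.8% and 32.9% of those on autosomes. The difference was present in each length class, for example 83.5% on X and 55.2% on autosomes at 2200 to 2600 bp. X was nonetheless poor in such regions, with 491 or 2.87 per Mb, against 6.18 ± 1.54 per Mb on the autosomes. Its median DMSO E5 region was 1600 bp long, within the autosomal range of 1600 to 1800 bp. How many X chromosomes these cells carry was not given in the sources used here, and its part in the result was not tested.

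**Figure D2:**
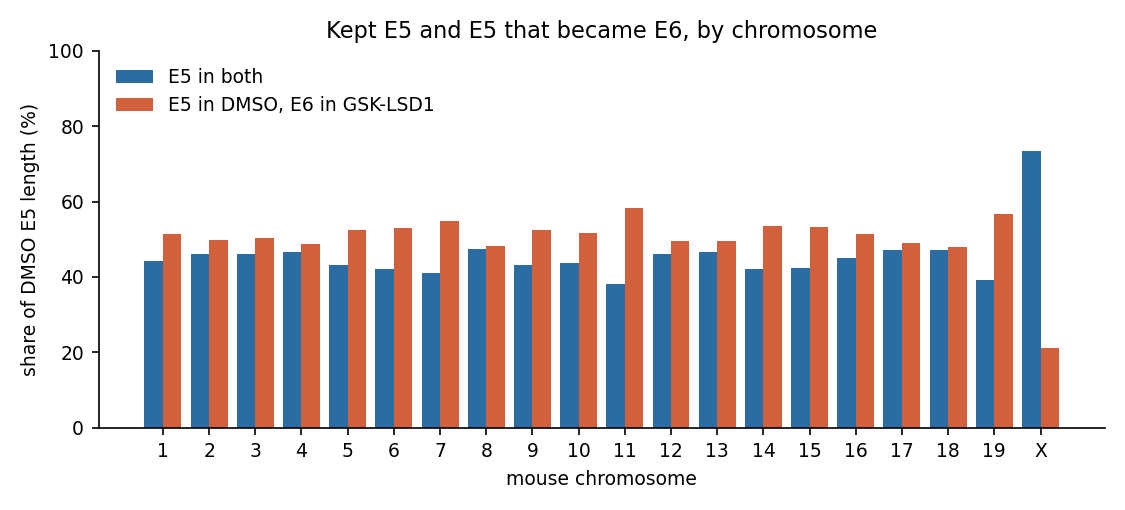
Share of DMSO E5 length (vertical axis, %) that stayed E5 (blue) or became E6 in GSK-LSD1 (orange) on each chromosome (horizontal axis). The 19 autosomes range from 38.2% to 47.5% kept, and chromosome X stands at 73.3%.

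Kept E5 bins lay close to annotated gene ends more often than E5 bins that became E6. Over 2.5 kb from any annotated gene end lay 22.5% of kept E5 bins (22.2 to 22.7), against 37.7% (37.4 to 37.9) of E5 bins that became E6. By region, 3261 of 15450 (21.1%) were distal in this sense, and 69.8% of those lay inside a protein-coding gene. A RefSeq start was covered by 4496 kept regions (29.1%) and by 31.0% of the E5 to E6 regions. Starts on both strands lay under 13.6% (12.6 to 14.6) of the former and 18.6% (17.5 to 19.7) of the latter.

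The 8 longest kept regions each overlapped a protein-coding gene. The longest spanned 10.8 kb on chromosome 11 (69117401 to 69128200, GRCm38), over Hes7, a Notch-driven repressor of the segmentation clock, Aloxe3, a skin lipoxygenase gene, and 5 tRNA genes. All of its DMSO E5 was kept, and in GSK-LSD1 it was part of 20.4 kb of E5. Next came 9.8 kb over Bahcc1 (chromosome 11, 120229201 to 120239000) and 8.2 kb over Bcl11a, a zinc finger repressor of fetal globin (chromosome 11, 24073201 to 24081400). Id2, an inhibitor of basic helix-loop-helix factors, also had 8.2 kb (chromosome 12, 25093401 to 25101600). Fgf9, a growth factor gene, had 8 kb (chromosome 14, 58069601 to 58077600), and the nuclear receptor gene Nr4a3 had 7.6 kb (chromosome 4, 48041801 to 48049400). Ccnd2, which encodes cyclin D2, had 7.6 kb (chromosome 6, 127148601 to 127156200), and the shared start of Ift172 and Fndc4 had 7.4 kb (chromosome 5, 31289001 to 31296400). E4 flanked 6 of these 8 on both sides in DMSO; Bahcc1 and Bcl11a were the exceptions, with E5 on 1 side. In GSK-LSD1 no side of the 8 was bordered by E6 apart from 1 side of the Bcl11a region.

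Distal kept regions were shorter, with a median of 1000 bp and a longest of 7200 bp. That longest lay within Smarcd3, a chromatin remodeller subunit gene (chromosome 5, 24598401 to 24605600). The next were 7 kb within Hnrnpu, an RNA-binding protein gene (chromosome 1, 178327001 to 178334000), and 7 kb within Cyp26b1, which encodes an enzyme that degrades retinoic acid (chromosome 6, 84583401 to 84590400). Tph1, for serotonin synthesis, held 6.2 kb, the kinase gene Sgk1 held 5.6 kb, and Runx2, a factor of bone formation, held 5.4 kb, 38.5 kb from the nearest annotated end. RefSeq starts inside genes were not used to define distance, so such regions can lie over inner starts. Distal regions were scattered: 2603 coding genes were the nearest to at least 1, and 2094 of them to exactly 1. Bcor, a corepressor gene on X, was nearest to 10 regions with 14 kb in all, more than any other coding gene, followed by Mef2c, a myeloid and muscle factor gene on chromosome 13, with 7 regions and 9.2 kb.

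Of the 444 regions with identical E5 in both segmentations, the 6 longest lay over or within Osr2 (5.6 kb), Spry2 (5.4 kb), Prdm1 (5.2 kb), Ddx10 (5 kb), Adgrb2 (4.8 kb) and Dcun1d4 (4.4 kb). Spry2 encodes a feedback inhibitor of receptor tyrosine kinases and Prdm1 a repressor that drives plasma cell differentiation. E4 bordered them on both sides in both segmentations, except Osr2, which had E3 on 1 side in GSK-LSD1. The Prdm1 region lay 17.8 kb from the nearest end of the gene.

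Around gene starts, kept E5 and E6 took different places. Of 17274 protein-coding genes with a RefSeq start, 4140 had kept E5 in the start bin, 4326 had E5 in DMSO and E6 in GSK-LSD1, and 6384 had E2 or E3 in both. At the 4140 starts, kept E5 reached 71.2% of genes at 800 bp downstream and 43.8% at 800 bp upstream, while E5 that became E6 was at 12.9% and 3.72% of genes there. At the 4326 starts that became E6, kept E5 was 0 at the start by definition and lay on both flanks: 19.6% of genes at 800 bp upstream and 35.8% at 1600 bp downstream. E5 that became E6 was still the more frequent of the 2 there, at 52.6% and 47.9%.

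**Figure D3:**
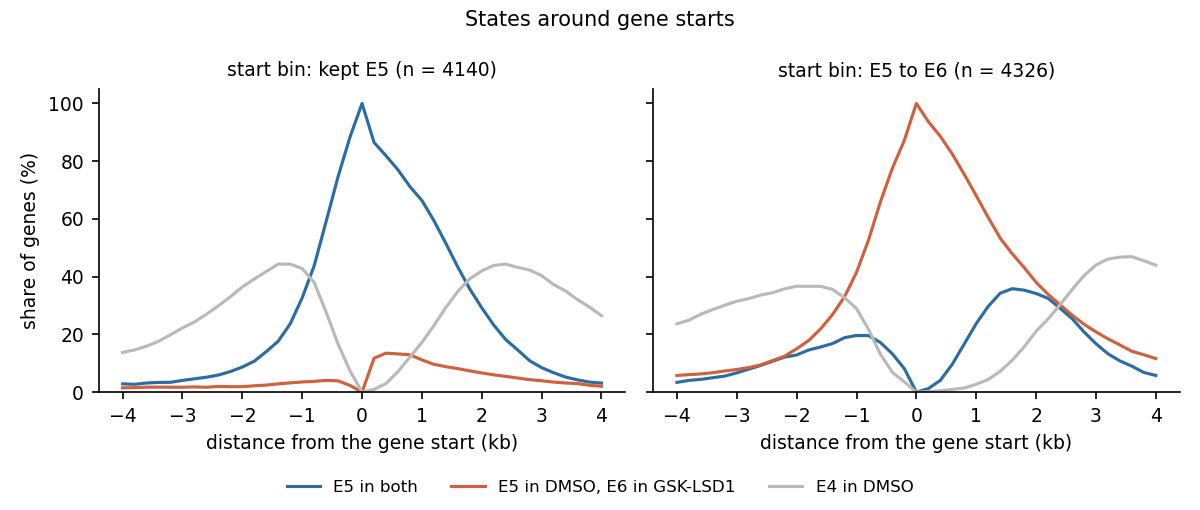
Share of genes (vertical axis, %) with E5 in both segmentations (blue), E5 that became E6 (orange) or E4 in DMSO (grey) at distances from the gene start (horizontal axis, kb, downstream to the right), for 4140 genes whose start bin was kept E5 (left) and 4326 whose start bin went from E5 to E6 (right). In the right panel the kept E5 line has a peak on either side of the start, the higher one, 35.8%, downstream.

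Promoter sequence differed little in overall composition and more in single motifs. Median GC content was 62.3% at kept starts and 61.3% at starts that became E6. The CpG ratio, the number of CpG over that expected from C and G content, had a median of 0.758 and 0.819, against 0.586 over all 17274 starts. Among starts of either kind, the kept share was 59.3% (56.4 to 62.2) at a ratio of 0.4 to 0.6 and 36.2% (33.5 to 39.0) at 1 and above. It was 52.0% (48.2 to 55.8) under 0.4, so it was not highest where CpG was scarcest.

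The ETS-type letters CCGGAAG, on either strand, occurred in 14.0% of kept starts, 25.1% of those that became E6 (23.8 to 26.4) and 12.1% of all starts. The lower share at kept starts was found within each band of CpG ratio: 9.36% and 14.3% under 0.6, 14.0% and 24.8% at 0.6 to 0.8, 17.3% and 28.6% at 0.8 to 1, and 14.8% and 29.1% from 1. The letters AAGATGGC, which YY1 binds, occurred in 3.38% of kept starts and 6.17% of those that became E6 (3.23% of all). GCGCATGC, the NRF1 core, occurred in 4.52% and 7.10% (3.64% of all). TCTCGCGA, a palindrome found at some starts, occurred in 1.11% and 3.84% (1.55% of all). These sets are not exclusive, since a window can hold several. The GC box GGGCGG occurred in 71.0% and 68.9% (46.9% of all). Within each band of CpG ratio it was somewhat more frequent at kept starts. The shares were 48.0% and 43.3% under 0.6, and 73.8% and 69.5% at 0.6 to 0.8. They were 81.9% and 77.0% at 0.8 to 1, and 81.4% and 77.0% from 1. TATAAA occurred in 5.99% and 5.92% (13.4% of all). The 8-letter run GAGGAAGT, preferred by PU.1, occurred in 2.15% and 3.58% (3.17% of all). The letters TTGCNNAA, a C/EBP-type run, occurred in 7.63% and 7.51% (10.3% of all). A match is not evidence of binding.

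Genes were sorted by what lay within 1 kb of either annotated end. A gene had only kept E5 when a kept region reached into that window and no E6 was there in either segmentation. Of 21631 protein-coding genes, 4444 (20.5%) were of this kind, 3949 had kept E5 with E6, 4580 had other E5 or E6, and 8658 had neither. Among the 12276 with any E5 in DMSO in the window, the share was 36.2%. It was 77.0% (72.2 to 81.2) of the 339 such genes on X and 35.0% (34.2 to 35.9) of the 11937 on autosomes. Only the absence of E6 is fixed by this rule: E5 may widen or narrow. When genes with any bin that was E5 in only 1 segmentation were also left out, 1372 genes (6.34%) remained. Neighbouring genes can share a region, so genes of a cluster are not independent.

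No family with at least 10 matched members had only kept E5 at every member (0 of 81), and 77 of the 81 had at least 1 such gene. The 10 families with the highest share of members with only kept E5 were semaphorins and plexins, cilium transport genes, Wnt ligands, SOX, Eph and forkhead genes, dual-specificity phosphatases, FGF ligands, Zfp genes and the TNF superfamily. The order depends on the denominator. Among members with E5 in DMSO, Hox genes (11 of 14, 78.6%), potassium channels (24 of 31, 77.4%), collagens (9 of 12), protocadherins (9 of 12) and cytochrome P450 genes (15 of 21, 71.4%) were above 5 of these 10, although their shares of all members were at most 28.2%. The families lowest in that share were of 2 kinds: those with almost no E5 at all (olfactory and vomeronasal receptors, beta-defensins, most chemokines), and those with E5 or E6 at most members and E6 beside any E5 that was kept (ribosomal proteins, histones, the anaphase-promoting complex, SOCS, STAT, JAK and PIM genes, with Rpl19 and H4c17 as exceptions). Each share is set below against 20.5% of all genes and, among members with E5 in DMSO, against 36.2%. That second share varied with the length of DMSO E5 in the window. It was 28.8% at 200 to 400 bp and 48.4% at 1200 to 1600 bp. Above that it was 32.6% at 1800 to 2200 bp and 16.0% at 2400 to 4800 bp. Median DMSO E5 was 1400 bp in Wnt ligands and 2200 bp in dual-specificity phosphatases, both high. It was 1400 bp in histones and 2800 bp in ribosomal proteins, both low. The part of length in the family shares was not tested.

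**Figure D4:**
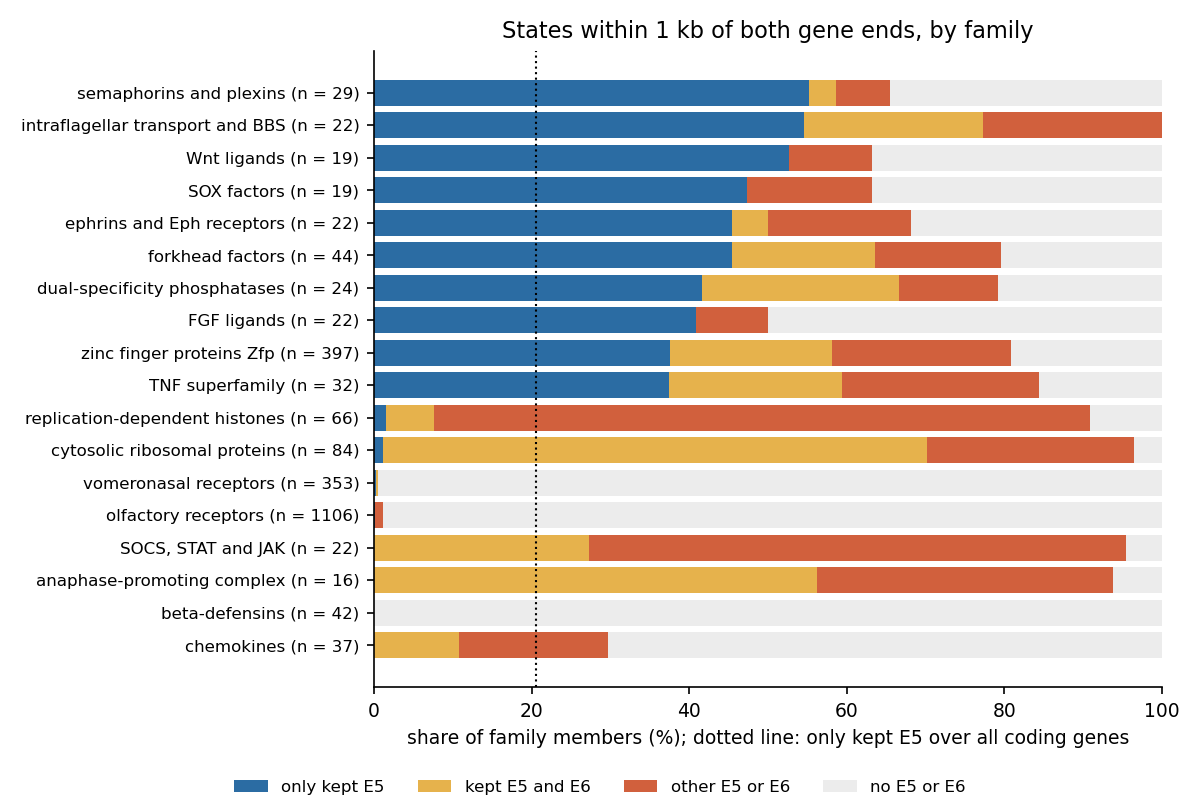
Share of members (horizontal axis, %) by what lay within 1 kb of both gene ends, for the 10 families with the highest and the 8 with the lowest share with only kept E5 (blue); the dotted line is the 20.5% of all protein-coding genes. Semaphorins and plexins stand at 55.2%, and SOCS, STAT, JAK and PIM genes, the anaphase-promoting complex, beta-defensins and chemokines at 0.

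Guidance cues and their receptors were high. Of 29 semaphorins and plexins, the ligands and receptors of repulsive guidance, 16 had only kept E5 (55.2%), and they were 16 of the 17 with E5 in DMSO (94.1%; 73.0 to 99.0). Sema6c held 3.4 kb of kept E5, Sema3c 2.2 kb and Sema6b 2.2 kb, and the receptor genes Plxna1, Plxnc1 and Plxnd1 held 1.8 kb each. In each of these 6 all of the DMSO E5 was kept, and E5 in GSK-LSD1 ranged from 2.2 to 3.8 kb. The exception with E5 in DMSO was Sema4f, where 1.4 of 3.6 kb stayed E5 and 2.2 kb became E6. Sema4c had 1 kb of E5 in GSK-LSD1 only, and Sema4d, known from lymphocytes, had E6 in both, 1.6 and 2.2 kb. Ephrins and Eph receptors, which signal between touching cells, followed with 10 of 22 (45.5%; 10 of 13 with E5). Efna2 held 3 kb of kept E5 and Efna5, Efnb2 and Epha7 held 2.2 kb each, while Efna1 had 0.6 kb of E6 in GSK-LSD1 beside 2.2 kb of kept E5. Epha4 and Epha5 had E5 in DMSO alone, 1.2 and 1 kb, and Efnb1 and Ephb3 in GSK-LSD1 alone, 1.8 and 0.8 kb.

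Wnt proteins, most FGFs and TNF ligands are secreted or membrane-bound signals. Of 19 Wnt ligands, 10 had only kept E5 (52.6%), which were 10 of 11 with E5 in DMSO (90.9%; 62.3 to 98.4), and no Wnt gene had E6 in either segmentation. With the bin of the end alone it was 6 of 19. Wnt10b held 1.8 kb, Wnt11 1.6 kb and Wnt3 1.6 kb. Wnt7a had 0.2 kb of E5 in DMSO only and Wnt6 0.2 kb in GSK-LSD1 only. Among 22 genes matched by symbol as FGF ligands, 9 had only kept E5 (40.9%; 9 of 10 with E5). Fgf11 held 3.6 kb, and Fgf15 and Fgf9 held 2.2 kb each. Fgf3 was the exception, with E6 of 3 kb before and 4.4 kb after treatment, and Fgf10 had 1 kb of E5 in GSK-LSD1 alone. In the TNF superfamily, ligands and receptors of inflammation and cell death, 12 of 32 (37.5%) had only kept E5, out of 24 with E5. Tnfrsf11a, the receptor RANK, held 2 kb of kept E5 and Tnfrsf10b, a death receptor, 1.6 kb. Tnfsf9 had most of all members, 2.6 kb, but with 0.8 kb of E6 before and 1 kb after treatment, and Tnfrsf1a went from 2.2 kb of E5 to 2.2 kb of E6.

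SOX and forkhead proteins are transcription factors of development. Of 19 SOX genes, 9 (47.4%) had only kept E5, led by Sox12 and Sox5 with 2.2 kb each and Sox8 with 1.8 kb. The exceptions were Sox4, expressed in haematopoietic progenitors, where 3.4 of 3.6 kb became E6, Sox9, whose 0.8 kb of E5 was found only in DMSO, and Sox17, with 1 kb only in GSK-LSD1. Of 44 forkhead genes, 20 (45.5%) had only kept E5, led by Foxb2 and Foxc1 with 3.4 kb each and Foxl2 with 2.8 kb. Members named for tissue patterning (Foxd1, Foxd2, Foxd4, with 2.6, 2.4 and 2.4 kb) stood beside Foxo1, Foxo6 and Foxm1 with 2.2 kb each. Forkhead genes with E6 were Foxk1, Foxk2, Foxo3, Foxp1, Foxp4, Foxj3, Foxn2, Foxa3 and Foxh1. At Foxp1 0.4 of 2.2 kb was kept and at Foxk1 0.2 of 2.2 kb, the rest becoming E6. Of 397 zinc finger genes named Zfp, a large group that includes repressors of transposable elements, 149 (37.5%) had only kept E5, or 49.0% of the 304 with E5. Zfp174 held 4 kb, Zfp78 3.6 kb and Zfp329 3 kb. Genes of a Zfp cluster lie side by side and can share regions.

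Of 39 Hox genes, which were outside the 10 highest families, 11 (28.2%) had only kept E5, but these were 11 of 14 with E5 in DMSO (78.6%; 52.4 to 92.4). Hoxa4 and Hoxc9 held 2.2 kb each, and Hoxa9, a leukaemia factor gene, 0.2 kb. Hoxb4 was the Hox gene with E6, 0.4 kb in GSK-LSD1 beside 1.6 kb of kept E5.

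Intraflagellar transport and BBS genes, which build and serve the cilium, differed from the families above in that every member had E5 or E6. Of 22 genes, 12 had only kept E5 (54.5%; 57.1% of the 21 with E5, 36.5 to 75.5). Bbs7, Ift172, Ift27 and Ift88 held 2.2 kb each, the length of 1 of the 2 end windows, with no E6 in either. Ift57 was at the other end, with 0.4 of 3.6 kb kept and 3.2 kb turned to E6. Ift122, Ift140, Ift20 and Bbs4 kept no E5 region and had 1.4 to 2.2 kb of E6. The 2 cilium promoters printed above are thus members of 1 family with opposite outcomes.

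Of 24 dual-specificity phosphatases, only some of which switch off MAP kinases, 10 had only kept E5 (41.7%). Dusp28 held 2.6 kb and Dusp19, Dusp4 and Dusp7 held 2.2 kb each. Dusp2 and Dusp1, fast-induced members, went the other way, with 3.6 of 4.4 kb and 2.6 of 3 kb becoming E6, and all 2.2 kb at Dusp5 became E6.

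**Figure D5:**
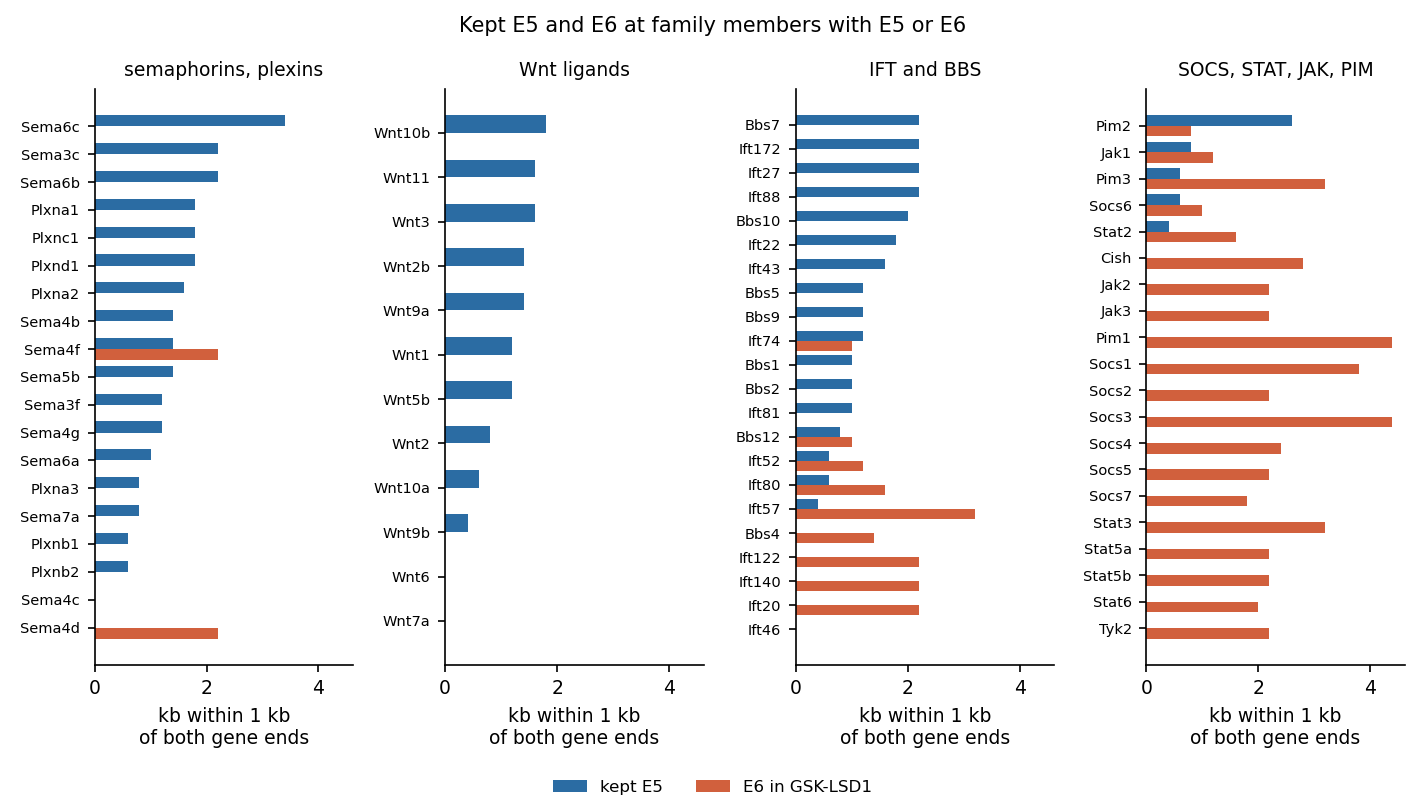
Length of kept E5 (blue) and of E6 in GSK-LSD1 (orange) within 1 kb of both gene ends (horizontal axis, kb) for members with E5 or E6 in 4 families. Wnt genes show no E6, semaphorins and plexins show it at Sema4f and Sema4d, and every SOCS, STAT, JAK and PIM gene shown has it.

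At the opposite end, 0 of 22 SOCS, STAT, JAK and PIM genes had only kept E5, although 18 had E5 in DMSO, which allows up to 17.6% of those (upper Wilson limit). By gene starts alone it was 1 of 17, and with the bin of the end alone 2 of 22. All 22 but 1 had E6 in GSK-LSD1. The most kept E5 was 2.6 kb at Pim2, a survival kinase gene on X, with 0.8 kb of E6. Next was Jak1 with 0.8 kb, and Pim3 and Socs6 kept 0.6 kb each. At Jak2, Tyk2, Socs5 and Stat5b no E5 was kept and E6 covered 2.2 kb in GSK-LSD1. In the list of CSF3R and JAK/STAT signalling, 1 of 22 had only kept E5: Il6ra, the interleukin 6 receptor, with 2 kb and 2.8 kb of E5 in GSK-LSD1. Csf3r had 0.6 kb of E5 in GSK-LSD1 and none in DMSO, so it held no kept region. Of the 16 anaphase-promoting complex genes, which drive exit from mitosis, 0 had only kept E5 and 15 had E5 in DMSO (upper limit 20.4%). With the bin of the end alone it was 2 of 16. Cdc23 kept 2 of 2.8 kb, Cdc20 1.2 of 4 kb and Anapc4 1 of 3.2 kb.

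Ribosomal protein genes had kept E5 often, but with E6 beside it. Of 84, 58 had both and 1 had only kept E5, against 81 with E5 in DMSO. With the bin of the gene end alone it was 10 of 84 (11.9%). The single gene was Rpl19, with 2.8 kb. Rpl29 kept 3 of 3.4 kb with 0.4 kb of E6, and Rpl22l1 2.6 of 3 kb with 0.4 kb. Of 66 replication-dependent histone genes, which supply histones in S phase, 1 had only kept E5, H4c17 with 0.6 kb, and E6 was present at 46 in DMSO and 59 in GSK-LSD1. Chemokine genes had 0 of 37, with Cxcl16 (1.6 kb), Ccl25 and Cxcl2 (0.8 kb each) keeping most. Olfactory receptors had 1 of 1106, Olfr94 with 0.8 kb, vomeronasal receptors 1 of 353, Vmn2r29 with 0.6 kb, and beta-defensins 0 of 42 with no E5 or E6 at any.

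Few myeloid list genes had E5 in DMSO, 8 in each of the granulocyte and monocyte lists, and the difference between these lists was not tested. In the granulocyte list 0 of 25 genes had only kept E5, 8 of them with E5 in DMSO (upper limit 32.4%). With 2.5 kb windows it was 2 of 25. Nkg7 was the only member with a kept region, 1.2 kb, with 2.2 kb of E6 in GSK-LSD1. Prtn3, a protease of primary granules, had 4 kb of E5 in DMSO, all of which became E6, and Gfi1 had 2.2 kb, all of which became E6. Of 18 monocyte and macrophage genes, 4 had only kept E5 (22.2%, beside 20.5% of all genes; 4 of 8 with E5, 21.5 to 78.5%), among them Cd14 and Klf4 with 2.2 kb each and Irf8 with 1.6 kb. Ccr2, the receptor for monocyte attractants, kept 1.2 kb with 0.8 kb of E6 in GSK-LSD1. Klf4 and Irf8 encode transcription factors of the monocyte lineage, and Cd14 a receptor that binds bacterial lipopolysaccharide. The E5 around Cd14 widened to 4 kb in GSK-LSD1.

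Of 18 progenitor and leukaemia genes, 6 had only kept E5 (33.3%; 35.3% of the 17 with E5, close to the 36.2% of all genes). Bcl2, a survival gene, and Meis1, a partner of HOXA9, held 2.2 kb each. The receptor genes Kit and Flt3 held 1.4 and 1.2 kb, Erg 0.4 kb and Hoxa9 0.2 kb. Mycn kept more than any of these, 2.4 of 3 kb, but had E6 of 1 kb before and 1.2 kb after treatment. Cd34, Gata2 and Runx1 kept none, with E6 of 2.2, 3.4 and 2.2 kb in GSK-LSD1.

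The cells' own Cebpa had only kept E5, and was the only one of 6 genes with Cebp symbols to do so (16.7%, beside 20.5% of all genes). All 2.2 kb of its DMSO E5 stayed, and E5 filled 4.4 kb, the whole of both windows, in GSK-LSD1. Cebpd kept 0.8 of 3.8 kb, Cebpz 1.8 of 2.8 kb, and Cebpb, Cebpe and Cebpg kept none, with E6 of 3.6, 4 and 2.2 kb in GSK-LSD1. Reads from the introduced CEBPA could add to the exons of Cebpa if they match it, and how far they do was not tested.

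Of 18 LSD1 and CoREST complex genes, 4 had only kept E5 (22.2%; all 18 had E5). Kdm1b, the paralogue of LSD1, held 1.8 kb, Gse1 and Insm1 1.4 kb each and Zmym3, on X, 0.6 kb. The target gene Kdm1a itself kept 0.4 of 1.2 kb, and the other 0.8 kb became E6. The share of this list was lower than the 36.2% of all genes with E5 in DMSO. Without X, which takes out Zmym3, it was also lower than the share of all genes. With 4 of 18 genes, the counts are too small to set the list apart from either share. Of 18 housekeeping genes, 1 had only kept E5, Hprt with 1 kb, and it also lies on X. Rplp0 kept 2.2 of 3.4 kb and Actb all of its 1.8 kb, with E6 beside it in both cases.

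When every bin that was E5 in only 1 segmentation was barred, the division between families narrowed with the 6.34% of all genes that still qualified. Semaphorins and plexins then had 2 of 29 (6.90%) and Wnt ligands 1 of 19 (5.26%), no longer apart from all genes. Intraflagellar transport and BBS genes had 6 of 22 (27.3%), dual-specificity phosphatases 4 of 24 (16.7%), and Zfp genes 50 of 397 (12.6%). The low families stayed at 0 or 1 gene each, but their distance from all genes shrank as well. For SOCS, STAT, JAK and PIM genes and for the anaphase-promoting complex it went from -20.5 to -6.34 percentage points. Semaphorin and Wnt genes were thus apart in the absence of E6 and not in the limits of E5.

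Transfer RNA genes had the highest share with only kept E5 among gene types with at least 10 genes. Of 408 tRNA genes, 170 (41.7%; 37.0 to 46.5) had only kept E5, or 69.7% of the 244 with E5 in DMSO, against 36.2% of such protein-coding genes. Outside chromosome 13 it was 93 of 303 (30.7%), or 58.9% of those with E5. These shares and that of protein-coding genes rest on unlike windows. A tRNA gene is so short that its 2 windows merged into at most 2.4 kb, against up to 4.4 kb at a protein-coding gene. Less sequence was thus searched for E6 at tRNA genes, and the part of this in the difference was not tested. Among other types the share of genes with E5 was 54.5% of transcribed pseudogenes (36 of 66), 39.9% of lncRNA genes, 39.7% of miRNA genes, 29.7% of snRNA genes and 15.1% of snoRNA genes. Of the 170, 138 lay more than 2.5 kb from the ends of coding genes, as did 334 of all 408 tRNA genes. The share with only kept E5 was 41.3% of those 334 and 43.2% of the tRNA genes nearer to coding genes. The 170 genes touched 102 separate kept regions, so neighbouring genes share them. RNA polymerase III transcribes tRNA genes from inner promoters. Many tRNA genes are near-identical copies, and the handling of reads that match several copies was not given in the sources used here.

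On chromosome 13, histone and tRNA genes lie in the same 3 Mb, between 21 and 24 Mb. They differed in how often they had only kept E5. There, 77 of 104 tRNA genes (74.0%; 64.9 to 81.5) had only kept E5, in 45 separate regions, and 77 of the 86 with E5 in DMSO. Of 53 histone genes in the same interval, 1 had only kept E5 and 4 held any kept region. E6 was present at 38 in DMSO and 47 in GSK-LSD1. Histone genes were not without E5: over all 66, 54 had it in DMSO, and at 53 of these some became E6. On chromosome 11, 30 of 52 tRNA genes had only kept E5, 5 of which lie in the 10.8 kb region over Hes7 and Aloxe3. On chromosome 6, where 50 of 53 tRNA genes had neither state, it was 1.

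Among miRNA hairpins, 70 of 1005 lay wholly inside a kept region, in 57 regions. Of the 138 in DMSO E5, these were 70, and 60 lay in bins that all became E6. Of all E5 in DMSO, 43.7% lay in kept regions and 51.3% became E6, and no difference from these shares was tested. The kept region with the most hairpins covered the miR-17 to miR-92a cluster, whose products act on cell cycle and survival genes, with 3.6 kb on chromosome 14 (115042801 to 115046400). It held all 6 hairpins, and the E5 there measured 4.2 kb before and 3.6 kb after treatment. The mature sequences (RefSeq) are printed because they show which members of the cluster share a seed, bases 2 to 8, given in capitals.
miR-17-5p: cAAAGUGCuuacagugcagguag
miR-20a-5p: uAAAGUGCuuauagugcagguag
miR-18a-5p: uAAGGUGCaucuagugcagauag
miR-19a-3p: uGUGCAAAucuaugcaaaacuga
miR-19b-3p: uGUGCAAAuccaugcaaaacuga
miR-92a-3p: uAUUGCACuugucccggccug
miR-17-5p and miR-20a-5p share a seed, as do miR-19a-3p and miR-19b-3p, so 1 kept region covers several seed groups. Other kept regions held Mir212 with Mir132 (3.8 kb, chromosome 11), Mir130b with Mir301b (3 kb, chromosome 16), Mir9-1 (3 kb, chromosome 3), Mir148a (2.8 kb, chromosome 6) and Mir15b with Mir16-2 (0.4 kb, chromosome 3). The segmentations carry no strand and no transcript levels, so they do not show whether these miRNAs were expressed.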

How the data were processed

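Segmentations of mouse leukaemia cells after DMSO or GSK-LSD1 were used, 1 per treatment. The authors deposited segments with a state label, E1 to E6, and no counts or scores. Per the submitters' processing notes, the read aligner Bowtie was used, with mm10, also called GRCm38, as the build (Bowtie's version was not given in the sources used here). How the states were made, with which tool, thresholds, input handling and marks, was likewise not given in the sources used here. Such choices move state limits, and E5 may rest on other marks in 1 treatment than in the other. Neither reads nor signal tracks were analysed.

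Segments were expanded to 200 bp bins. Genes, starts, promoter windows and miRNAs came from RefSeq tables (GRCm38.p6). The gene table has no strand, so both gene ends were used. A start in the promoter table was found for 17274 of 21631 protein-coding genes (the most 5′ one was taken). Families were matched by symbol. The members, gene lists, families and tests were chosen with earlier results of these data known. Genes named were the longest regions, the 3 members with most kept E5 in each of the 10 highest and 8 lowest families and in 6 lists, members that went against their family, and Cebpa, Csf3r, Kdm1a and Gfi1; Hox, tRNA, histone-cluster, miRNA and printed promoter examples were chosen after their values were seen. Some genes that this rule takes are left out of the text and plots, but not out of the counts. Shares have 95% Wilson intervals (scipy 1.17.1, pandas 2.3.3, Python 3.11.15). The calculation was run on a copy of the DMSO segmentation with E6 planted at 200 genes with only kept E5, and all 200 were recovered. The rule for this class requires that outcome, so it checks the code and not the accuracy of the calls.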

Additional observations from a re-analysis of the deposited data

How the results depend on the processing

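Each setting was changed alone. The number of kept regions was 9929 at a minimum of 1000 bp. The distal share was 39.9% with a limit of 1 kb, 12.98% with 5 kb and 27.9% with the ends of protein-coding genes only. Genes with only kept E5 numbered 1372 (6.34%) when no bin could be E5 in only 1 segmentation. Their share was 22.4% with the bin of the gene end alone, 20.0% with 2.5 kb windows, 18.7% with regions of at least 1000 bp, 12.2% over genes of any type and 36.2% of genes with E5 in DMSO. Against all genes, Wnt ligands went to -1.08 percentage points when no bin could be E5 in only 1 segmentation, and vomeronasal receptors to 13.8 among genes with E5 in DMSO (1 of 2). The LSD1 and CoREST list went to -0.148 with the bin of the end, -7.50 with starts alone, -0.787 when no bin could be E5 in only 1 segmentation, -2.59 without X and -14.0 among genes with E5 in DMSO, and the progenitor list to -0.907 among the last. Leaving out X, and absorbing 1-bin segments at genes, were chosen after the data were seen. Over the 10 highest families, 60 of 70 alternatives stayed within the main share's interval, 9 left it and 1 reversed the direction. Over the 8 lowest, 25 of 55 stayed, 29 left it and 1 reversed. No paired analysis was possible because each treatment has 1 segmentation. Depth is unknown, so a state that is missing may be a mark below the threshold.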
